A study of Mus musculus with 8 samples.

Results

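The IL-6 family was followed in brain pericyte cultures as 10 genes, taken by symbol from the count tables: the cytokines *Il6*, *Il11*, *Lif* and *Ctf1*, the receptor genes *Il6ra*, *Il11ra1*, *Il6st*, *Lifr* and *Osmr*, and the feedback inhibitor *Socs3*. All 10 were found among the 54532 gene identifiers of the files, and all 10 passed the filter on low counts that left 22544 genes to test. RNA was sequenced from 8 primary cultures of wild-type mouse brain labelled as pericytes. Of these, 4 had received TGF-β1 at 5 μg mL−1 for 48 h and 4 had received vehicle, with no other treatment or allele named. The cultures had been propagated over several passages in serum-containing medium before treatment. The study's methods name male mice of 4 and 6 months for its animal work in general and do not tie sex or age to the brains used for these cultures. They describe 4 independent isolates that received vehicle and TGF-β1, so the 8 cultures may come from 4 isolates, but the labels do not say which cultures share an isolate. The question put to these data was how added TGF-β1 altered the ligands, receptors and feedback control of a cytokine family that pericytes can both secrete and sense.

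Cytokines of this family share a receptor subunit, gp130, which is encoded by *Il6st*. IL-6 and IL-11 first bind their own receptors (*Il6ra* and *Il11ra1*), whereas LIF and cardiotrophin 1 (*Ctf1*) join gp130 to the LIF receptor (*Lifr*), and oncostatin M in the mouse joins it to *Osmr*. The assembled receptors activate JAK kinases and mainly STAT3, whose target SOCS3 then binds gp130 and dampens the signal. Brain pericytes are known as a source of IL-6 during inflammation, and IL-11 is known as a product of fibroblasts exposed to TGF-β.

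The libraries held between 45255235 and 47651397 counts, and vehicle and TGF-β1 totals overlapped (p = 0.857 in a two-sided exact permutation test). Levels are given as CPM, the count per 1000000 after TMM scaling, on which 3 counts correspond to 0.0631 to 0.0658 CPM. Of the 8 genes listed as a check of the treatment, 7 were higher and 1, *Tgfbi*, was lower, from 230.0 ± 4.78 to 81.2 ± 10.3 CPM (SD, n = 4 each). The pericyte label was only partly borne out by markers, since *Pdgfrb*, *Cspg4* and *Notch3* were abundant (202, 82.9 and 88.5 CPM with vehicle), while *Kcnj8*, *Abcc9* and *Vtn*, which define brain pericytes in tissue, had no more than 10 counts in any culture. *Rgs5*, another brain pericyte gene, fell from 8.62 to 2.13 CPM. *Anpep* fell from 40.5 to 30.1 CPM, and *Des* had 25 to 36 counts per culture and was not called. *Cdh5*, a gene of endothelial cells, was at 375 CPM with vehicle, but *Cldn5*, *Erg* and *Tie1* also had no more than 10 counts. Of the other endothelial markers, *Kdr* was at 17.9 CPM and *Pecam1* at 1.11 CPM with vehicle, and neither was called. *Tek* was lower, from 2.71 to 1.99 CPM, with overlapping groups. The summed level of the 9 pericyte markers was 413 to 434 CPM with vehicle and 568 to 591 CPM with TGF-β1, that of 6 fibroblast markers 1654 to 1735 and 2568 to 2696 CPM, that of 6 astrocyte markers 237 to 248 and 209 to 223 CPM, and that of 7 endothelial markers 389 to 404 and 373 to 399 CPM. Of the fibroblast markers *Lum* and of the astrocyte markers *Aqp4* had no more than 10 counts in any culture. The endothelial sum is mostly *Cdh5*, which was not called, at 375 CPM with vehicle and 367 CPM with TGF-β1. The astrocyte sum is mostly *Gja1*, which was not called, at 195 CPM with vehicle and 190 CPM with TGF-β1. On that list *Slc1a2* was lower (38.5 to 16.3 CPM) and *Aldh1l1* higher (5.16 to 8.79 CPM), and *Gfap* was at 0.879 CPM with vehicle. The higher pericyte sum with TGF-β1 came with *Pdgfrb* (202 to 291 CPM) and *Cspg4* (82.9 to 169 CPM). Of the 6 pericyte markers tested, these 2 were higher and *Rgs5* and *Anpep* were lower. The fibroblast sum is mostly *Col1a1*, at 1588 CPM with vehicle and 2525 CPM with TGF-β1. *Col1a1* is also 1 of the 8 genes listed as a check of the treatment, so its rise is counted in both places. Of the other fibroblast markers *Dcn* and *Dpt* were lower and none was higher. The part of such shifts in the results was not tested. In bulk RNA, a change in the number of cells that express a gene cannot be told apart from a change in the RNA per cell.

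Of the 10 members, 5 were higher (*Il6*, *Il11*, *Lif*, *Osmr* and *Socs3*) and 2 were lower (*Il11ra1* and *Lifr*) with TGF-β1, and 3 were not called (*Ctf1*, *Il6ra* and *Il6st*). These calls come from edgeR's quasi-likelihood test with Benjamini-Hochberg adjustment over all genes tested and a threshold of 0.05. The response to TGF-β1 was wide, with 41.3% of all tested genes called, 20.9% higher and 20.3% lower, so a call alone set no member apart. Large rises were less common. With a rise of more than 1 on the log2 scale 2.59% of tested genes were called, *Lif* and *Il11* among them, and with a rise of more than 2 the share was 0.466%, with *Il11* among them. By log2 fold change, 0.395% of all tested genes stood above *Il11*, 2.04% above *Lif*, 2.87% above *Il6*, 3.62% above *Socs3* and 7.85% above *Osmr*, whereas 7.64% stood below *Lifr* and 8.80% below *Il11ra1*. The median log2 fold change was 0.31 over the 10 members and -0.01 over all genes tested. The members' median falls between *Ctf1*, which was not called, and *Osmr*. Because the members were chosen with earlier results of these data known, these ranks and medians only describe them. In the 7 called members the groups did not overlap, as in 37.9% of all tested genes (19.1% with every TGF-β1 culture above and 18.8% with every TGF-β1 culture below every vehicle culture). The plot of each member's values by culture shows these separations.

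**Figure D1:**
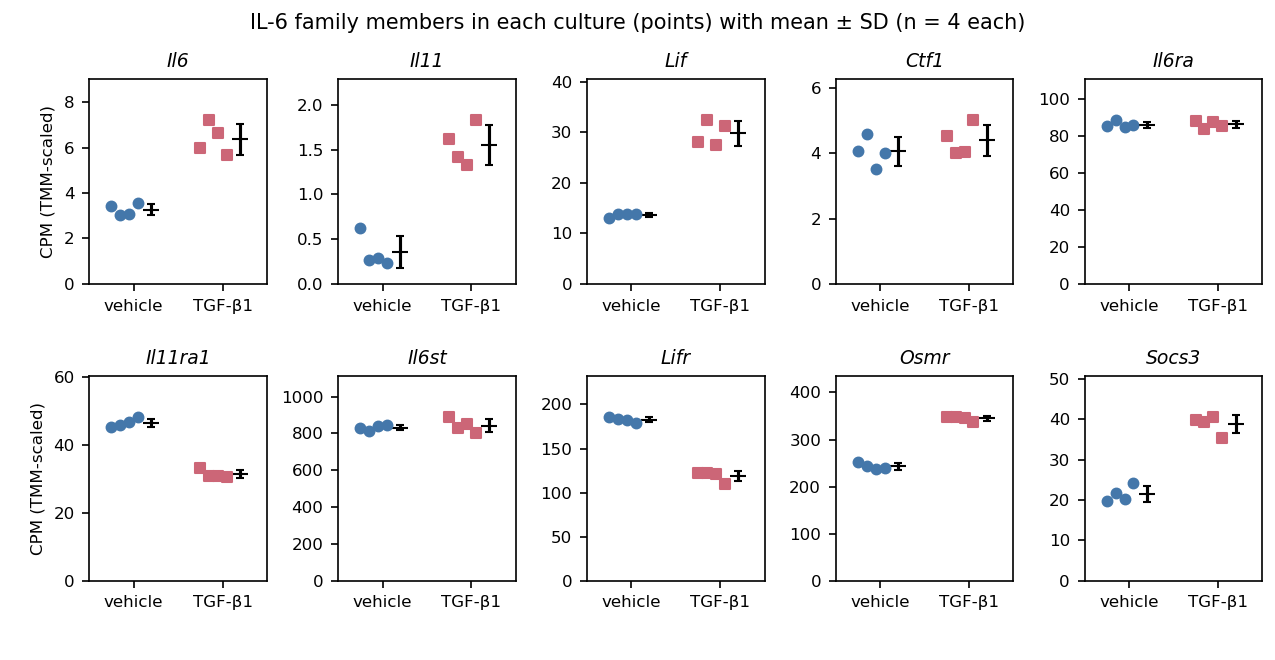
TMM-scaled CPM of the 10 members in each culture (y axes start at 0), with vehicle cultures as blue circles, TGF-β1 cultures as red squares, and the mean ± SD (n = 4) as a black bar beside them. *Il6*, *Il11*, *Lif*, *Osmr* and *Socs3* sit higher and *Il11ra1* and *Lifr* lower in every TGF-β1 culture, whereas the points of *Ctf1*, *Il6ra* and *Il6st* overlap.

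*Il6*, *Il11* and *Lif* rose together, and their promoters are shown because a shared sequence was the feature examined beside that shared direction. The windows are the 250 bases before a RefSeq transcript start on GRCm38.p6, written 5′ to 3′ on the strand of the gene. All 10 members were matched, with 13 starts in all. Capitals mark matches, on either strand, to AP-1 (TGANTCA), STAT (TTCNNNGAA), NF-κB (GGGA and TTTCC with any 1 base between them) and C/EBP (TTGCNNAA) motifs. The *Socs3* window is given with them as that of the STAT3 feedback gene. For *Il11*, with 2 starts, the window shown is that of the more downstream start, since the other held none of these matches.
Il6 (chr5:30012864-30013113, plus strand): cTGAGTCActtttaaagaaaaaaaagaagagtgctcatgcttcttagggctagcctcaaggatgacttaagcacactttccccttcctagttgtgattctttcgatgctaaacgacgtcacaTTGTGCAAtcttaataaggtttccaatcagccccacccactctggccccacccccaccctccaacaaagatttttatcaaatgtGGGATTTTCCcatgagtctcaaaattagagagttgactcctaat
Il11 (chr7:4778142-4778391, minus strand): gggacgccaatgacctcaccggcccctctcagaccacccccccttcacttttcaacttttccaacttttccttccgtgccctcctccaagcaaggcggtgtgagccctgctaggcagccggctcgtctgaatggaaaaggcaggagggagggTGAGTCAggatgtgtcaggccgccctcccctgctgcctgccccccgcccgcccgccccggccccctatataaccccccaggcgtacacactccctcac
Lif (chr11:4257318-4257567, plus strand): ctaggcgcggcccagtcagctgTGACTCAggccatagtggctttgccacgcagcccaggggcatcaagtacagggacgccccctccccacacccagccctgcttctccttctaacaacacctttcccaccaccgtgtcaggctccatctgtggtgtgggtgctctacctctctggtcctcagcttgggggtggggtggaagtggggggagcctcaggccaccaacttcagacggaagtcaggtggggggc
Socs3 (chr11:117969367-117969616, minus strand): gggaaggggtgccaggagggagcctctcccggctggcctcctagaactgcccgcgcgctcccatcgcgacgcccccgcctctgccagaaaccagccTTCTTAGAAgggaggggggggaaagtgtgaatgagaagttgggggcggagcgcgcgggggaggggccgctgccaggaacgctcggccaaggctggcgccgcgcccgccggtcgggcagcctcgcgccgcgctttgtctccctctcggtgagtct

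An AP-1 match was found for *Il6* (249 bases before the start), *Il11* (98 bases) and *Lif* (228 bases), and for no other member. That motif occurred in 3 of the 13 member windows and in 6.75% of the 32851 windows in the promoter table. *Il6* also held an NF-κB match 44 bases and a C/EBP match 128 bases before its start. Each was found in 1 of the 13 member windows, against 0.356% and 9.56% of all windows. The only STAT match among the members was in *Socs3*, 154 bases before its start. That is 1 of the 13 member windows, against 7.02% of all windows. For STAT and C/EBP the share in member windows was thus close to that of all windows, and neither motif set the members apart. A SMAD half-site (CAGAC, not capitalised above) was common, in 42.2% of all windows and 6 of the 13 member windows. No match overlapped another. These motifs were chosen with the expression results known, gene counts do not tell which start was used, and a match describes letters in a window, not binding.

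**Figure D2:**
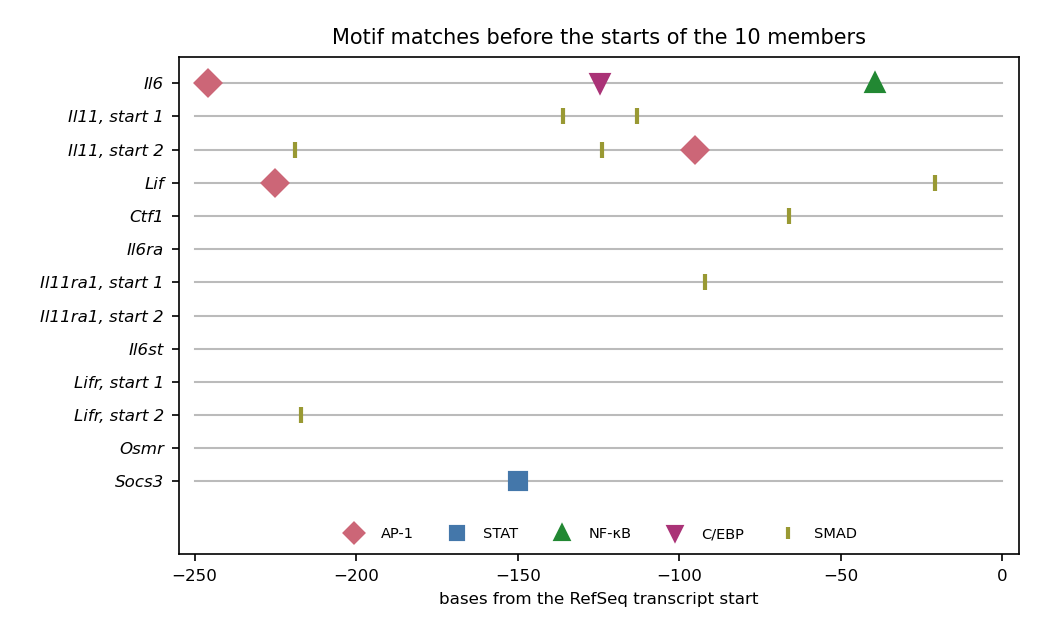
Positions of motif matches in the 250 bases before each of the 13 RefSeq starts of the 10 members (x axis in bases from the start), with diamonds for AP-1, a square for STAT, an upward triangle for NF-κB, a downward triangle for C/EBP and ticks for the SMAD half-site. AP-1 matches appear in *Il6*, *Lif* and the second start of *Il11* and in no other row.

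*Il6*, which encodes the founding cytokine of the family (ENSMUSG00000025746, chromosome 5, 30013114 to 30019981 of GRCm38), was at 3.43, 3.05, 3.07 and 3.55 CPM in vehicle replicates 1 to 4 and at 5.98, 7.21, 6.63 and 5.66 CPM in TGF-β1 replicates 5 to 8. All TGF-β1 cultures were above all vehicle cultures. The log2 fold change was 0.96 (SE, the standard error, 0.10, adjusted p = 1.37e-10, edgeR), a 1.94-fold rise with a 95% interval from 1.68 to 2.25. Macrophages and microglia are another source of this cytokine. Of 7 markers of these cells, *Adgre1* and *Fcgr1* had no more than 10 counts in any culture, and *Ptprc* had 23 to 43 counts. Their summed level was 2.98 to 4.05 CPM with vehicle and 4.34 to 5.30 CPM with TGF-β1, a separation that came with *Csf1r* (1.50 ± 0.380 to 2.50 ± 0.258 CPM, SD, n = 4 each). The part of such cells in the rise of *Il6* was not tested.

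*Il11* (ENSMUSG00000004371, chromosome 7, 4772373 to 4782859) encodes a cytokine that acts on stromal cells, and it showed the largest fold change of the 10 members from the lowest level. Its counts were 29, 12, 14 and 11 in vehicle replicates 1 to 4 and 74, 65, 61 and 86 in TGF-β1 replicates 5 to 8. On the CPM scale these were 0.629, 0.263, 0.295 and 0.238 against 1.61, 1.42, 1.33 and 1.83. Vehicle replicate 1 stood above the other vehicle cultures but below every TGF-β1 culture. The log2 fold change was 2.11 (SE 0.25, adjusted p = 2.00e-09, edgeR), which is 4.32-fold with a wide interval of 3.03 to 6.16 at these counts. Without vehicle replicate 1 it was 2.54.

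*Lif* (ENSMUSG00000034394, chromosome 11, 4257557 to 4272514), the gene of leukaemia inhibitory factor, was the most abundant of the 4 cytokines. It was at 13.1, 13.8, 13.8 and 13.8 CPM with vehicle and at 28.1, 32.4, 27.4 and 31.3 CPM with TGF-β1. The vehicle cultures were close together and far below the treated ones. The rise was 2.19-fold (95% interval 2.03 to 2.36, log2 fold change 1.13, SE 0.05, adjusted p = 9.93e-22, edgeR).

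*Ctf1* (ENSMUSG00000042340, chromosome 7, 127712736 to 127718192), which encodes cardiotrophin 1 and like *Lif* signals through *Lifr*, was at 4.08, 4.61, 3.54 and 4.03 CPM with vehicle and at 4.54, 4.01, 4.06 and 5.02 CPM with TGF-β1. The groups overlapped. Its log2 fold change of 0.12 (SE 0.11, adjusted p = 0.419, edgeR) had a 95% interval from -0.10 to 0.34. At 168 to 236 counts per culture, the interval allowed a rise of up to 1.26-fold, which is under the lower bounds for *Il6* (1.68), *Lif* (2.03) and *Il11* (3.03). A small part of its exons, 4.77%, overlaps *Ctf2* on the opposite strand.

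Among the receptors, the shared subunit and the IL-6-binding chain were not called, while *Osmr* was higher and *Lifr* and *Il11ra1* were lower. *Il6st* (ENSMUSG00000021756, chromosome 13, 112464070 to 112510086), the gp130 gene, was by far the most abundant member, at 829.9, 814, 839.8 and 845 CPM with vehicle and 889, 829.7, 850.3 and 802 CPM with TGF-β1. The treated cultures spread on both sides of the vehicle cultures. Its log2 fold change was 0.02 (adjusted p = 0.588, edgeR), with a 95% interval of 0.979- to 1.05-fold.

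*Il6ra* (ENSMUSG00000027947, chromosome 3, 89864059 to 89913196), which encodes the chain that binds IL-6 itself, was at 85.1, 88.6, 84.8 and 85.7 CPM with vehicle and 88.1, 84.0, 87.4 and 85.7 CPM with TGF-β1. The groups overlapped (adjusted p = 0.922, edgeR), and at 3858 to 4038 counts per culture the 95% interval of the fold change ran from 0.964 to 1.04. Membrane-bound and soluble forms of this receptor are not separated by counts per gene, and 2.80% of its exon length overlaps *Gm42809* on the opposite strand.

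*Osmr* and *Lifr* encode the alternative partners of gp130, for oncostatin M and for LIF and its relatives. *Osmr* (ENSMUSG00000022146, chromosome 15, 6813577 to 6874969) was at 253, 243, 237 and 239 CPM with vehicle and at 348, 347, 347 and 337 CPM with TGF-β1. This was a 1.42-fold rise (95% interval 1.37 to 1.47, log2 fold change 0.50, SE 0.02, adjusted p = 6.30e-22, edgeR). *Lifr* (ENSMUSG00000054263, chromosome 15, 7090614 to 7197489) went the other way, from 186, 183, 183 and 179 CPM to 122, 122, 122 and 109.7 CPM. The change on the log2 scale was -0.62 (SE 0.03, adjusted p = 1.08e-21, edgeR), which leaves 0.651 times the vehicle level. For both genes, each treated culture lay outside the vehicle range. The genes are neighbours in the genome, on opposite strands with 215644 bases between them.

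The balance of *Osmr* and *Lifr* differed between vehicle and TGF-β1 cultures without overlap. Per kilobase of exon, the level of *Osmr* was 1.21, 1.18, 1.15 and 1.19 times that of *Lifr* in vehicle replicates 1 to 4. In TGF-β1 replicates 5 to 8 it was 2.53, 2.54, 2.54 and 2.74 times that of *Lifr*. The ratio of *Il6ra* to *Il6st* was 0.133 ± 0.00463 with vehicle and 0.132 ± 0.00417 with TGF-β1 (SD, n = 4 each). Per kilobase of the longest coding transcript, a length tried after the data were seen, *Osmr* was 2.28 to 2.40 times *Lifr* with vehicle and 5.00 to 5.41 times with TGF-β1. The size of the ratio thus depends on the length. A change of length scales the ratio of every culture by the same factor, so it cannot bear on the separation of the groups. These ratios are given without a test, since the genes were chosen with their changes known.

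*Il11ra1* (ENSMUSG00000073889, chromosome 4, 41699989 to 41769474), the gene of the IL-11-binding chain, fell while its ligand rose. It was at 45.3, 46.0, 46.6 and 48.2 CPM with vehicle and 33.2, 31.0, 30.8 and 30.6 CPM with TGF-β1, so that every treated culture was below every vehicle culture. The log2 fold change was -0.57 (SE 0.04, adjusted p = 1.51e-16, edgeR), or 0.675 times the vehicle level. The value carries an uncertainty of counting, because 46.3% of the 50-base words in its transcripts also occur in the copies *Il11ra2* and *Gm13305*. *Il11ra2* was listed at 0 in every culture and *Gm13305* had 1 count in all, and how the counting treated reads shared between copies is not given in the sources used here.

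The feedback gene *Socs3* (ENSMUSG00000053113, chromosome 11, 117966079 to 117970047) was at 19.8, 21.9, 20.2 and 24.3 CPM with vehicle and at 39.9, 39.4, 40.6 and 35.5 CPM with TGF-β1. The lowest treated culture was above the highest vehicle culture. The rise was 1.80-fold (95% interval 1.67 to 1.94, log2 fold change 0.85, SE 0.05, adjusted p = 5.31e-15, edgeR).

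**Figure D3:**
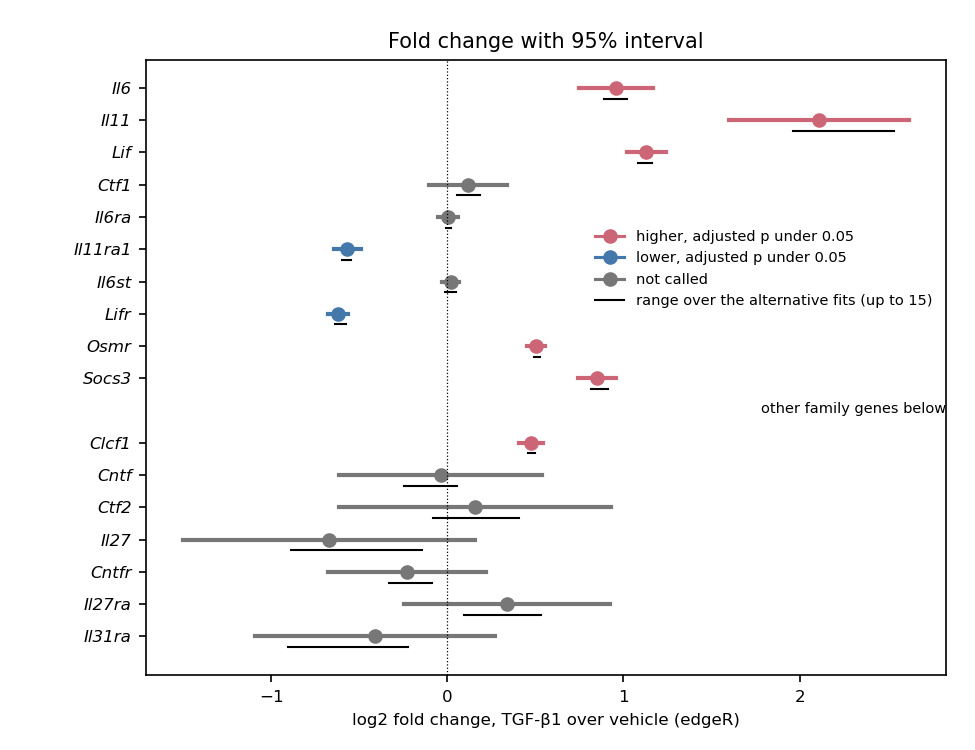
Log2 fold change of TGF-β1 over vehicle (x axis) from edgeR for the 10 members and, below them, 7 other genes of the family, as points with 95% intervals, red where higher and blue where lower with an adjusted p under 0.05 and grey where not called. The thin black line under each point spans its alternative fits, and for the 7 called members it stays on the same side of 0 throughout.

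To compare levels between genes, CPM was divided by the length of all annotated exons. On that scale the vehicle cultures held *Il6st* at 75.0 CPM per kilobase, far above *Osmr* (20.1), *Lifr* (16.9), *Il11ra1* (10.4), *Il6ra* (9.96) and *Socs3* (7.45). The cytokines followed, with *Lif* at 3.13, *Ctf1* at 2.23, *Il6* at 1.35 and *Il11* at 0.171 CPM per kilobase. Neighbours in this order did not overlap between cultures, except *Il11ra1* and *Il6ra*. With TGF-β1, *Socs3* (13.4 CPM per kilobase) stood above *Lifr*, whose range of 10.2 to 11.4 just met that of *Il6ra* (9.72 to 10.2). The ranges of *Lif* (6.30 to 7.44) and *Il11ra1* (6.85 to 7.42) overlapped, as did those of *Il6* (2.33 to 2.97) and *Ctf1* (2.20 to 2.75). *Il11* remained the lowest at 0.744 CPM per kilobase. The order depends on the length used. Per kilobase of the longest coding transcript, *Il11ra1* came above *Lifr* with vehicle (23.2 against 18.9) and *Osmr* reached 44.3, since their annotated exons are much longer than that transcript.

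**Figure D4:**
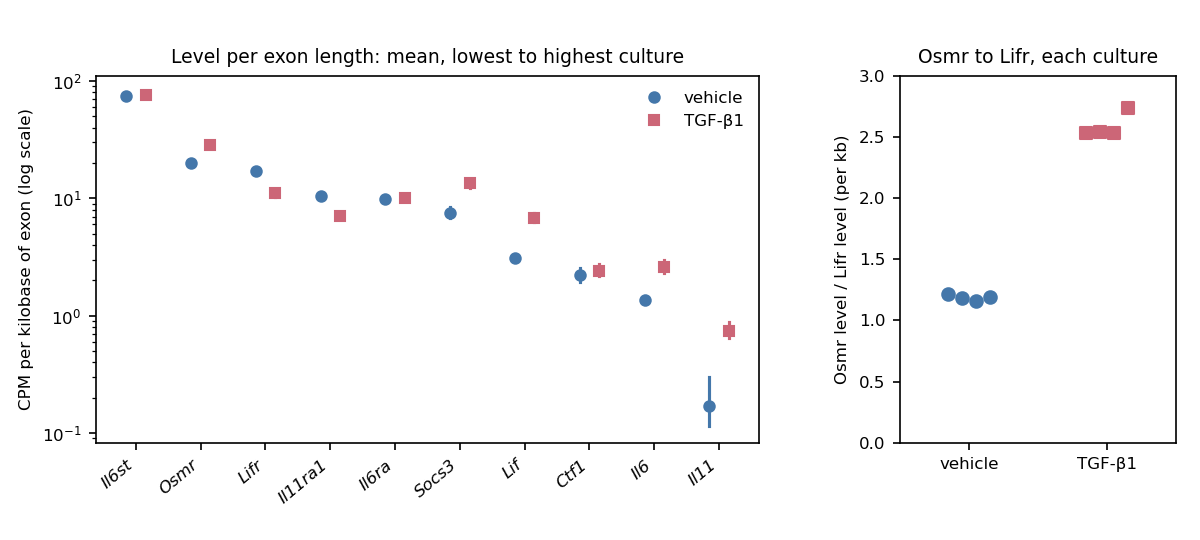
Left, level of each member per kilobase of exon (log axis), in order of the vehicle level, with the mean as a point and the lowest to highest culture as a line. Right, the ratio of *Osmr* to *Lifr* per kilobase of exon in each culture, which lies between 1.15 and 1.21 with vehicle and between 2.53 and 2.74 with TGF-β1.

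Outside the 10 members, *Clcf1*, the gene of a further cytokine that signals through gp130 and *Lifr*, was also higher. It was at 49.5, 47.5, 45.4 and 48.6 CPM with vehicle and at 66.3, 65.9, 67.5 and 65.5 CPM with TGF-β1, which is 1.39-fold (0.47 on the log2 scale, SE 0.03, adjusted p = 3.92e-16, edgeR). Every treated culture was above every vehicle culture. *Cntfr*, which encodes the chain that binds this cytokine, was low at 1.00 ± 0.155 CPM with vehicle and 0.855 ± 0.192 CPM with TGF-β1 (SD, n = 4 each, adjusted p = 0.447, edgeR).

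The remaining genes of the family were near the limit of these libraries. *Ctf2*, *Il27*, *Il27ra* and *Il31ra* had between 6 and 44 counts per culture and adjusted p-values from 0.200 to 0.785 (edgeR), with 95% intervals that spanned falls and rises. *Cntf* had 20 to 35 counts, but 78.9% of its exon length lies within exons of *Zfp91* on the same strand, so that its count cannot be assigned to it. *Osm*, *Ebi3*, *Il31* and *Il11ra2* were too low to test. *Osm*, the gene of the ligand of the *Osmr* chain that rose, had from 0 to 7 counts per culture.

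Downstream of the receptors, 11 genes for JAK kinases, STAT factors and adaptors held 1 higher and 6 lower, with a median log2 fold change of -0.06. Over all genes tested 20.9% were higher and 20.3% lower. The 6 lower became 5 with DESeq2, with its size factors or without vehicle replicate 1. They became 4 without TGF-β1 replicate 7 or 8 or without vehicle replicate 3 or 4. *Jak2*, a kinase bound to gp130, rose from 105 ± 6.35 to 126 ± 3.87 CPM (SD, n = 4 each). The kinase gene *Tyk2* fell by 0.35 and the adaptor gene *Gab1* by 0.20 on the log2 scale. *Stat3*, named here after its values were seen as the main factor of the pathway, fell by 0.16 (adjusted p = 8.05e-07, edgeR).

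Among 12 other genes of negative regulators, 3 were higher (25%) and 5 were lower (41.7%), against 20.9% and 20.3% of all genes tested. Their median log2 fold change was -0.05, so the direction of *Socs3* was not that of the group. The 3 genes that rose were *Cish* (0.53 on the log2 scale, from 2.65 ± 0.311 to 3.84 ± 0.827 CPM), *Socs5* (0.41) and *Socs2* (0.38). Their relatives *Socs4*, *Socs6* and *Socs7* were not called. *Ptpn6*, the phosphatase gene of SHP-1, fell from 11.1 ± 0.405 to 7.07 ± 0.781 CPM (SD, n = 4 each, log2 fold change -0.65, adjusted p = 1.37e-09, edgeR). *Socs1* fell by 0.29 with overlapping groups, and *Pias1*, which encodes an inhibitor of STAT factors, fell by 0.27 on the log2 scale.

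A list of 26 genes known to respond to STAT3, chosen with earlier results of these data known, was mostly higher. It held 18 higher (69.2%), 6 lower (23.1%) and 2 not called (*Mcl1* and *Nnmt*). Among all genes tested, 20.9% were higher and 20.3% lower. The median log2 fold change was 0.44 on the list, against -0.01 over all genes tested. The largest rises were *Il4ra*, a receptor chain for IL-4 and IL-13 (1.53, from 23.0 ± 2.67 to 66.7 ± 1.90 CPM), *Pim1*, a survival kinase (1.36, from 13.5 ± 0.853 to 34.8 ± 2.18 CPM), and *Timp1*, an inhibitor of matrix metalloproteinases (1.13, from 94.7 ± 3.63 to 207 ± 6.36 CPM, SD, n = 4 each). The largest falls were *Lbp*, which encodes a lipopolysaccharide-binding protein (-0.78), the complement gene *C3* (-0.69) and *Steap4*, a metalloreductase gene (-0.51). Of other acute-phase genes on the list, named after their values were seen, *Hp* rose by 1.11 and *Saa3* by 0.55 on the log2 scale. Many genes of the list, such as *Myc*, *Fos*, *Junb* and *Vegfa*, also respond to other signals, and STAT3 activity itself was not measured.

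The genes of NF-κB and of factors that bind *Il6* mRNA were divided, with 7 of 17 higher, 7 lower and a median log2 fold change of 0.00. Each direction held 41.2% of the list, against 20.9% higher and 20.3% lower among all genes tested. *Nfkbiz*, a nuclear co-activator of *Il6* transcription, rose from 74.0 ± 3.08 to 114 ± 4.72 CPM (log2 fold change 0.63, adjusted p = 1.47e-20, edgeR). *Zfp36*, whose product destabilises cytokine mRNAs, fell from 49.1 ± 1.56 to 35.0 ± 1.70 CPM (SD, n = 4 each, log2 fold change -0.49, adjusted p = 1.78e-14, edgeR), while its relative *Zfp36l1* rose by 0.37 and *Zc3h12a*, which encodes an RNase that degrades *Il6* mRNA, rose by 0.22. *Il1r1*, the IL-1 receptor gene, fell by 0.43 and the NF-κB inhibitor gene *Nfkbia* by 0.20 on the log2 scale. The plot of the pathway by list shows the medians of the STAT3 response list and of the 10 members to the right of the other 3 lists. Members and lists alike were chosen with earlier results of these data known, so their order is only a description.

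**Figure D5:**
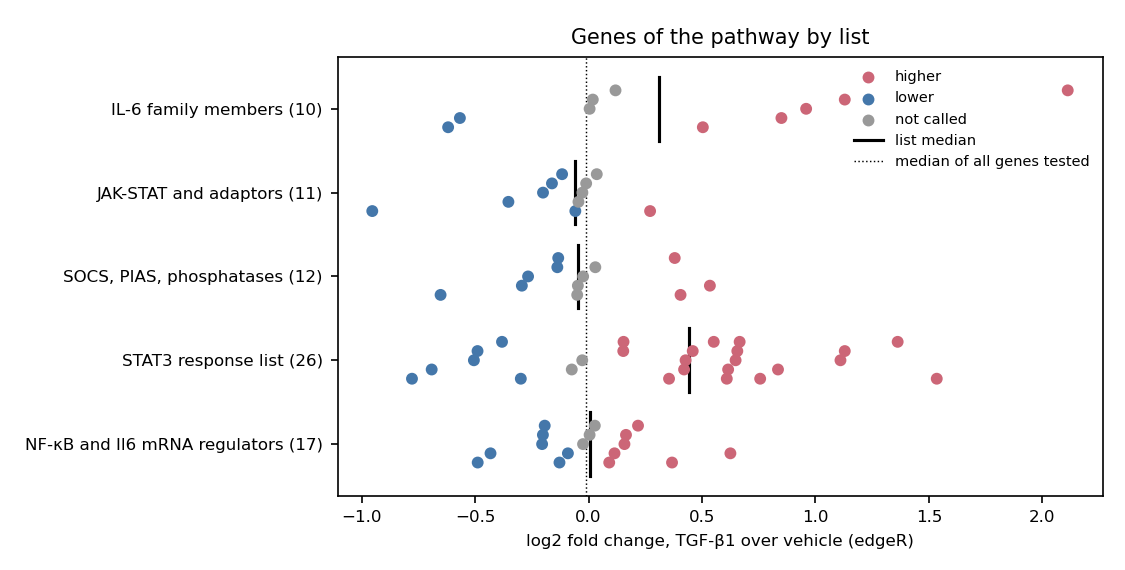
Log2 fold change of TGF-β1 over vehicle (x axis) of every gene in the 5 lists, red where higher, blue where lower (adjusted p under 0.05, edgeR) and grey where not called, with list medians as black lines and the median of all genes tested dotted. The medians are 0.31 for the members, -0.06, -0.05 and 0.00 for the JAK-STAT, negative regulator and NF-κB lists, and 0.44 for the STAT3 response list.

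Several genes of the family lie close together in the genome. *Lif* lies 16530 bases from *Osm*, which was too low to test. *Il11ra1* lies 2899 bases from *Cntfr* and *Il6st* 9811 bases from *Il31ra*, and neither of those neighbours was called. *Osmr* and *Lifr* were the only such pair with both genes called, in opposite directions.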

How the data were processed

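RNA from 8 pericyte cultures was extracted and made into libraries with a stranded total RNA kit. Per the study's methods and the submitters' processing notes, the authors aligned reads to mm10 with STAR 2.7.5c in 2-pass mode, removed PCR duplicates by means of samtools 1.15 and assigned reads to genes with featureCounts 2.0.3. The authors deposited raw counts for 54532 Ensembl identifiers, without normalization. The annotation, the strand setting and the rule for reads that match several genes are not given in the sources used here.

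Identifiers were paired with symbols (54409) and with GENCODE M21 positions on GRCm38 (54495). Promoter windows came from RefSeq on GRCm38.p6. Counts were analysed with edgeR 4.0.16 in R 4.3.3 (filterByExpr, TMM, robust quasi-likelihood test, TGF-β1 against vehicle, no covariate), with Benjamini-Hochberg adjustment over 22544 genes. The SE is the log2 fold change divided by the square root of F. The fit was tested on simulated counts. Low counts were mostly even (68.5% to 70.2% of counts from 1 to 20), so counts may exceed independent fragments. Alternatives were DESeq2 1.42.0, other scalings and filters, counts divided by 2, and each culture left out. An exact permutation test was used for library totals.

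The members, lists and motifs were chosen with earlier results of these data known. The text names all members, other family genes with at least 10 counts in any culture, and up to 3 called rises and 3 called falls of each further list. Some genes under this rule are not reported here. Any other gene is named for a count, a marker or a check.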

Additional observations from a re-analysis of the deposited data

Results flagged for a closer look

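Among 82 groups of 4 values (the named genes and the library totals), 5 had 1 value well apart from its neighbours. Chance alone, at 1 group in 20, would give 4.1 over all 82 groups. All 5 were groups of members, which make up only part of the 82, and the other named genes and the library totals had none. In vehicle replicate 1, *Il11* stood at 0.629 CPM and the nearest culture at 0.295, and *Lif* stood at 13.1 CPM and the nearest at 13.8. In TGF-β1 replicate 5, *Il11ra1* stood at 33.2 CPM and the nearest culture at 31.0. In TGF-β1 replicate 8, *Lifr* stood at 109.7 CPM (nearest 122) and *Osmr* at 337 CPM (nearest 347). None of these cultures crossed into the range of the other group, and the cause was not tested.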

How the results depend on the processing

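The 5 higher and 2 lower members kept their direction and their call in all 7 alternatives of tool, scaling, filter and counting unit and in all 8 fits with a culture left out. *Il11* ranged most among them, from 1.96 to 2.54 on the log2 scale with a culture left out. The value of *Il6ra*, close to 0, changed sign to -0.0011 when genes needed only 1 count in any culture, -0.0066 with library totals only and -0.0013 with upper-quartile factors, and ranged from -0.0085 to 0.022 with a culture left out. With a culture left out, *Il6st* ranged from -0.011 to 0.050, *Cntf* from -0.25 to 0.055 and *Ctf2* from -0.080 to 0.41. None of these was called in any fit. *Il31ra* was called, at -0.90, without TGF-β1 replicate 7 alone. The number of genes called ranged from 8559 to 9311. No paired analysis was possible because, although the study's methods describe 4 isolates given both treatments, the labels number the vehicle cultures 1 to 4 and the TGF-β1 cultures 5 to 8, with nothing to link them.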
